A study of Mus musculus with 14 samples.

Results

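Transcript levels of 8 genes that encode hormone receptors or luminal transcription factors were compared across 14 mouse mammary tumors profiled by bulk RNA-seq. The genes are Esr1, Pgr, Prlr, Foxa1, Gata3, Elf5, Greb1 and Cited1, taken by their symbols from a table of 56414 genes, and each was found once. M/D-driven tumors arose in C57BL/6 females that had received a slow-release pellet of medroxyprogesterone acetate (MPA, a synthetic progestin; 50 mg over 90 days, implanted at 6 to 9 weeks of age) and repeated gavages of the carcinogen 7,12-dimethylbenz[a]anthracene (DMBA; 200 µL at 5 mg/mL). AT3 tumors grew from 1000000 cells of a single transplantable mouse mammary carcinoma line injected under the skin of C57BL/6 hosts, with neither MPA nor DMBA given according to the labels, and the age of these hosts is not in the labels. In both models mice were randomized at a tumor size of 0.25 cm2 and either left untreated (4 M/D and 3 AT3 tumors) or given 0.5% nicotinamide (NAM, a form of vitamin B3) in the drinking water for 10 days (4 M/D and 3 AT3 tumors). M/D-driven tumors serve as a model of hormone receptor-positive breast cancer, so the levels of these genes in each model, and whether NAM moved them, are the comparisons the design implies.

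Estrogen receptor alpha (encoded by Esr1) and the progesterone receptor (Pgr) are nuclear receptors that bind DNA when their steroid ligand is present, whereas the prolactin receptor (Prlr) sits in the membrane and signals through the kinase JAK2 and the transcription factor STAT5. In the mammary gland, steroid receptors mark the hormone-sensing luminal cells, which relay the signal to neighboring cells. The forkhead factor encoded by Foxa1 opens chromatin for the estrogen receptor, the zinc finger factor of Gata3 maintains luminal cell fate, and the ETS factor of Elf5 drives the alveolar, milk-producing branch. Greb1 and Pgr are textbook target genes of the estrogen receptor, Greb1 protein being a cofactor of the receptor as well, and Cited1 encodes a transcriptional coactivator that interacts with it.

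Reads recovered from the deposited values numbered 40936868 to 84178009 per tumor, with 1 library per tumor. The labels place NAM-treated M/D-driven tumor 1 alone in experiment 2, the remaining 7 of that model in experiment 1 and all AT3 tumors in experiment 3, so that model and experiment cannot be told apart. That single tumor stood apart from the rest. The summed level of 10 B lineage markers was 360061 normalized counts in it, against 1225 to 3083 in the 7 other M/D-driven tumors, with 67823 for Vpreb1, a component of the precursor B cell receptor that reached at most 55.5 elsewhere in the model. All 9 epithelial markers were lowest in it, with a sum of 8089 against 115045 to 391500.4. Results on members that rest on this tumor are therefore given with and without it. AT3 tumors held epithelial transcripts such as Epcam (18832 to 27578) and Krt8 (16498 to 39283), but little Krt19 (87.5 to 471), Cldn3 (70 to 119) and Cldn4 (44.6 to 296). The deposited values were normalized separately for each model, so levels set side by side across models are approximate until the common scale used for the tests below. As RNA came from whole tumors, fewer cells of a type and less RNA per cell cannot be told apart.

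Of the 8 genes, Pgr, Prlr, Foxa1, Gata3 and Greb1 had their highest levels in the same pair of M/D-driven tumors, and the sequence just upstream of their start sites is shown for that reason, except for Gata3, whose window lies inside the gene. Sequences are from RefSeq (build GRCm38), written 5′ to 3′ on the strand of the gene, and end at the 5′ end of the gene as the deposited table has it. Capitals mark matches, on either strand, to 5 motifs. The estrogen receptor half-site was searched as GGTCA. The forkhead motif was TGTTTAC. For GATA factors AGATAA was used. The ETS motif was AGGAAG. The STAT5 motif was TTCNNNGAA.
Pgr, chr9:8899583-8899832, plus strand: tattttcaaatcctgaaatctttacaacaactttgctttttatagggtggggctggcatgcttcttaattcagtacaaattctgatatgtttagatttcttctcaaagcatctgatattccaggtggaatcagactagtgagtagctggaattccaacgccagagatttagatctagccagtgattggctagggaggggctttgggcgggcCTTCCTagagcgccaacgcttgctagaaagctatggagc
Prlr, chr15:10176988-10177235, plus strand: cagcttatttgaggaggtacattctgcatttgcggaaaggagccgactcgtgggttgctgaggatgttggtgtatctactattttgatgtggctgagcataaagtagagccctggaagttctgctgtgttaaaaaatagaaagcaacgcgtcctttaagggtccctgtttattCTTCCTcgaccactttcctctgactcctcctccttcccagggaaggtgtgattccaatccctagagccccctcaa
Foxa1, chr12:57546122-57546361, minus strand: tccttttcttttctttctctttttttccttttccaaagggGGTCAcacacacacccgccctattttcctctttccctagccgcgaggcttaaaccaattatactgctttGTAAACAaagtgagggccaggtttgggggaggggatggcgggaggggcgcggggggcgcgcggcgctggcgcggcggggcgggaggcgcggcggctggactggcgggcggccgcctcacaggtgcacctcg
Greb1, chr12:16800887-16801136, minus strand: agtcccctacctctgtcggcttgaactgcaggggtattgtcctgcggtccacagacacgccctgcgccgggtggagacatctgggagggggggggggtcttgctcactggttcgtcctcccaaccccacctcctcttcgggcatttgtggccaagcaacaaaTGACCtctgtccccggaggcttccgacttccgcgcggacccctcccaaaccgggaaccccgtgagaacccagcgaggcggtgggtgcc
The Pgr and Prlr windows each held an ETS motif, which 29.5% of the 250-base windows before 32851 RefSeq start sites also held. Foxa1 held a half-site and a forkhead motif, present in 35.2% and 3.17% of windows respectively, and Greb1 held a half-site. No full palindromic estrogen response element (GGTCANNNTGACC) was found in the 250 bases before the start site used for any of the 8 genes, as in all but 21 windows. The remaining windows held an ETS motif (Esr1), a half-site (Gata3 and Cited1) or none of these (Elf5), and no window held a GATA motif (9.99% of all windows) or a STAT5 motif (7.02%). For Esr1, Gata3 and Elf5 this window lies inside the gene as the deposited table has it. RefSeq holds 2 windows for Esr1, Elf5 and Greb1 and 3 for Prlr and Cited1, and only 1 per gene is described here.

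Among receptors, the M/D-driven and AT3 tumors lay farthest apart for Esr1 (chr10:4611593-5005633, mm10, like all gene positions here). Its normalized counts were 129.8, 574, 218 and 735 in untreated M/D-driven tumors 1 to 4, 672, 166, 799 and 489 in NAM-treated M/D-driven tumors 1 to 4, 0, 6.09 and 9.77 in untreated AT3 tumors 1 to 3, and 9.72, 33.9 and 54.5 in NAM-treated AT3 tumors 1 to 3. On these separately normalized values the 8 M/D-driven tumors were all above the 6 AT3 tumors, while the treatment groups overlapped within each model. The share of all genes that part the 8 from the 6 was not computed. On the common scale, 54.1% of genes tested did not overlap between untreated models and 27.9% between NAM-treated ones. In AT3 tumors these levels rest on 0, 6 and 12 reads without and 8, 36 and 66 reads with NAM, and a count of 0 allows up to 3 reads, that is 4.35 normalized counts in that tumor. Unlike the other receptors, Esr1 was not low in NAM-treated M/D-driven tumor 1, where epithelial markers were lowest.

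The progesterone receptor transcript (Pgr, chr9:8899833-8968611) spanned a wide range in M/D-driven tumors. Untreated ones held 167, 718, 71.3 and 189 normalized counts and NAM-treated ones 6.79, 26.8, 738 and 315. Untreated tumor 2 and NAM-treated tumor 3 were highest, and NAM-treated tumors 1 and 2 lay below all untreated tumors. AT3 tumors held 8.7, 18.3 and 19.5 without and 29.2, 31 and 16.5 with NAM, with overlapping groups. These AT3 levels rest on only 6 to 33 reads.

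Prlr (chr15:10177236-10349180) followed the order of Pgr at the top. Its normalized counts were 238, 2367, 533 and 258 in untreated and 196, 101, 2609.6 and 1711 in NAM-treated M/D-driven tumors, with untreated tumor 2 and NAM-treated tumors 3 and 4 far above the rest. The 6 AT3 tumors, at 355, 284 and 376 without and 255, 504 and 879 with NAM, lay within the range of M/D-driven tumors.

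Of the luminal factors, Foxa1 (chr12:57540631-57546121) was uniformly high in AT3 tumors, with 4108, 5287 and 4629 normalized counts without and 5728, 6411 and 5436 with NAM. Foxa1 was the only one of the 8 genes whose NAM-treated AT3 tumors all lay above the untreated ones. M/D-driven tumors ranged from low to high, with 408, 6589, 1315 and 849.8 in untreated and 426, 2153, 7201 and 4942 in NAM-treated tumors. The same 3 tumors that led for Prlr led for Foxa1.

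Gata3 (chr2:9857080-9890036) showed the opposite distribution. M/D-driven tumors held 2857, 4821, 2863 and 2098 normalized counts without and 224, 3113, 4878 and 3539 with NAM, so that 7 of the 8 fell within a 2.32-fold range and NAM-treated tumor 1 far below it. AT3 tumors held 179.7, 311 and 114 without and 213, 394 and 461 with NAM. Antisense transcripts are annotated within the span of Gata3, and the sources used here do not state whether counting used strand.

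Elf5 (chr2:103411687-103450989) was likewise high and even in M/D-driven tumors, at 4738, 4493, 6858 and 4292 normalized counts without NAM. With NAM, tumor 1 again stood lowest in a series of 385, 2481, 7664 and 8672. AT3 tumors held 504, 531 and 373 without and 386, 608 and 656 with NAM, and the groups overlapped.

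Greb1 (chr12:16670615-16800886) was scarce in both models. It gave 11.4, 56.5, 3.75 and 41.8 normalized counts in untreated and 0, 34.1, 58 and 20.9 in NAM-treated tumors of the M/D model, the count of 0 in NAM-treated tumor 1 allowing up to 2.55. AT3 tumors were tightly grouped at 31.9, 36.6 and 30.9 without and 21.9, 26.3 and 41.3 with NAM.

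The coactivator transcript Cited1 (chrX:102247378-102252181) was, like Esr1, not low in NAM-treated M/D-driven tumor 1. Its normalized counts were 206, 1281, 922 and 586 in untreated and 1494, 583, 1638 and 4188 in NAM-treated M/D-driven tumors. AT3 tumors held 1187, 633 and 1114 without NAM, and 1465, 909 and 212 with NAM, where tumor 3 was the lowest AT3 tumor. An antisense transcript is also annotated within Greb1, and one of the same strand within Prlr.

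**Figure D1:**
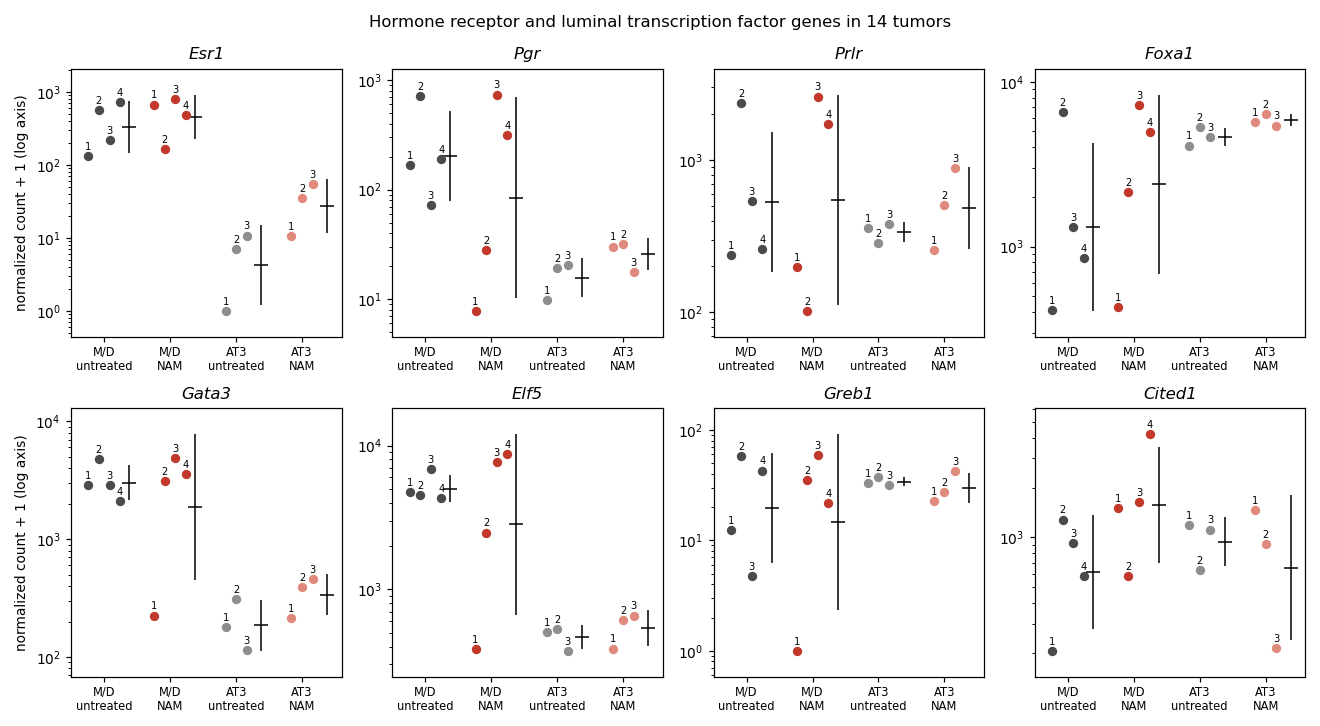
Normalized count + 1 (log axis) of each of the 8 genes in 14 tumors, by model and treatment. Points are single tumors with their replicate numbers, and the bar beside each group is the mean ± SD on the log2 scale. Esr1 lies between 129.8 and 799 normalized counts in M/D-driven tumors and at most at 54.5 in AT3 tumors. NAM-treated M/D-driven tumor 1 is the lowest M/D-driven tumor for Pgr, Gata3, Elf5 and Greb1.

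Levels of different genes were compared per kilobase of the longest annotated transcript. In untreated M/D-driven tumors Elf5 led with 1562 ± 365 normalized counts per kb (SD, n = 4), followed by Gata3 at 983 ± 362, Foxa1 at 718 ± 905 and Cited1 at 687 ± 422. The receptors came next, with Prlr at 85.8 ± 103, Esr1 at 65.3 ± 45.3 and Pgr at 41.6 ± 42.4, and Greb1 was last at 3.52 ± 3.09. Ranges of neighbors in this order overlapped except between Pgr and Greb1. In untreated AT3 tumors the order began with Foxa1 (1465 ± 185 per kb, SD, n = 3) and Cited1 (897 ± 276), went on with Elf5 (144 ± 26), Gata3 (62.7 ± 31.2) and Prlr (34.2 ± 4.86), and ended with Greb1 (4.11 ± 0.373), Pgr (2.25 ± 0.861) and Esr1 (0.834 ± 0.778). There, ranges overlapped only between Gata3 and Prlr and between Pgr and Esr1. With NAM, Cited1 ranked first in M/D-driven tumors at 1812 ± 1419 per kb, within the range of Elf5 at 1472 ± 1227, and Esr1 stood ahead of Pgr and Greb1 in AT3 tumors at 5.16 ± 3.54, with overlapping ranges.

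Untreated tumors of both models were next compared on a common scale set over both. In this and the next comparisons, calls were made by limma on log2(normalized count + 1), a gene counting as higher or lower when its fold change was 1.5 or more with p no larger than 0.05 before adjustment. Fold changes on this scale understate those of low genes. Esr1, Gata3, Pgr and Elf5 were higher in M/D-driven tumors, Foxa1 was lower, and Prlr, Greb1 and Cited1 did not pass. With 30.0% of the 21556 genes tested called higher and 26.8% called lower in this comparison, 4 of 8 and 1 of 8 members have to be read against a large general difference between models. Esr1 was at 369 ± 258 (SD, n = 4) in M/D-driven and 6.22 ± 5.84 (SD, n = 3) in AT3 tumors, a log2 fold change of 5.98 ± 0.96 (SE; adjusted p = 0.00139). For Gata3 the levels were 2809.5 ± 1087 and 236 ± 115 (log2 fold change 3.61 ± 0.39, adjusted p = 2.57e-04), and for Elf5 4499.6 ± 959 and 552 ± 96 (3.02 ± 0.22, adjusted p = 6.61e-05). Pgr stood at 257 ± 267 against 18.2 ± 6.95 (3.29 ± 0.74, adjusted p = 0.0065). These 4 genes had levels that did not overlap between models, as was the case for 54.1% of all genes tested, and their exact permutation p of 0.0571 is the smallest that 4 against 3 tumors can give (two-sided).

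Foxa1 was lower in untreated M/D-driven than in untreated AT3 tumors, at 2057 ± 2633 against 5500.2 ± 643 (log2 fold change -2.23 ± 0.78, adjusted p = 0.0402). The groups overlapped, since untreated M/D-driven tumor 2 reached the AT3 level, and the call was lost with edgeR (-1.37), with DESeq2 (-1.42), and without untreated AT3 tumor 2 (-2.15) or 3 (-2.23). Intervals of the difference were -1.41 to 1.89 for Prlr, -3.15 to 0.77 for Greb1 and -2.33 to 0.28 for Cited1 (log2, 95% confidence), too wide to show that the models were alike. Cited1 was called lower without untreated M/D-driven tumor 2 (-1.37, against -1.03 with all tumors). An adjusted p of at most 0.05 was reached by 5 of the 8 members and by 51.5% of all genes tested.

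In NAM-treated tumors, Esr1 was the only member called between models, at 469 ± 246 in M/D-driven and 37 ± 24.8 in AT3 tumors (log2 fold change 3.70 ± 0.72, adjusted p = 0.0244). It was also the only one whose groups did not overlap (27.9% of all 21286 genes tested), and 15.1% of genes were called higher and 10.3% lower. Without NAM-treated M/D-driven tumor 1, Gata3 (3.09) and Elf5 (2.97) were called higher as well, and Esr1 stayed at 3.50. Foxa1 was at -1.66 ± 0.86 with all tumors and at -0.84 without that tumor, and passed only without NAM-treated M/D-driven tumor 3 (-2.19). Of the others, Pgr was at 1.36 (-2.04 to 4.75), Prlr at -0.20 (-2.81 to 2.42), Greb1 at -1.35 (-4.34 to 1.64) and Cited1 at 0.88 (-0.97 to 2.72), each as a log2 fold change with its 95% confidence interval. With edgeR 3 members (Esr1, Gata3 and Elf5) and with DESeq2 4 (also Pgr) were called higher.

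**Figure D2:**
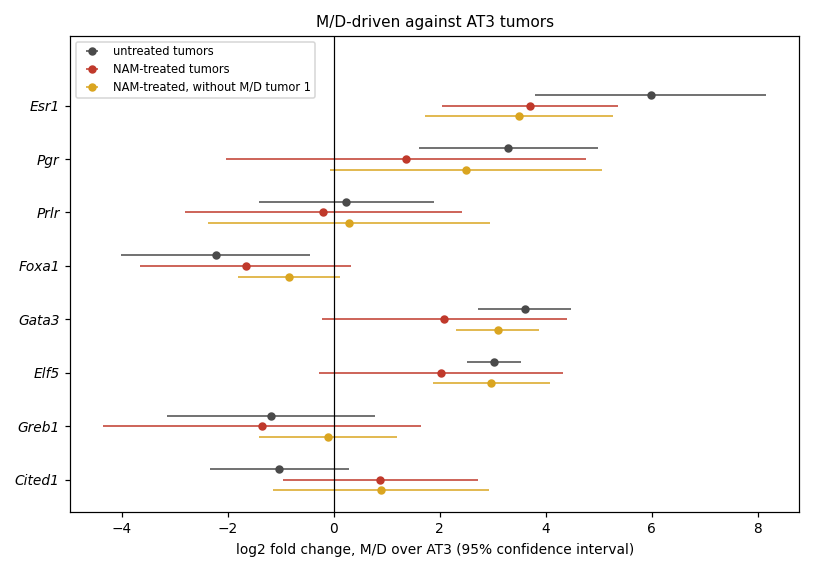
Log2 fold change of M/D-driven over AT3 tumors for each gene (limma estimate and 95% confidence interval), in untreated tumors, in NAM-treated tumors, and in NAM-treated tumors without M/D-driven tumor 1. Esr1 lies above 0 in all 3 sets, at 5.98, 3.70 and 3.50, whereas the intervals of Gata3 and Elf5 cross 0 in NAM-treated tumors only when M/D-driven tumor 1 is kept.

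In M/D-driven tumors none of the 8 members was called with NAM in either direction, where 3.03% of 21700 genes were called higher and 3.19% lower. With limma, 0 of the 8 had an unadjusted p of at most 0.05, edgeR called 0 and DESeq2 called 1 (Cited1). The largest estimate was that of Cited1, at 1976 ± 1547 with NAM and 749 ± 460.0 without (SD, n = 4 each), a log2 fold change of 1.35 ± 0.71 (SE) with a 95% confidence interval of -0.27 to 2.97 (adjusted p = 0.739). It passed in DESeq2 (1.38) and without NAM-treated tumor 2 (1.82). The next largest above 0 was Foxa1 at 0.86 (-1.56 to 3.28), which was 1.69 without NAM-treated tumor 1 (not called) and passed the thresholds, at 1.86, when the mean level of epithelial markers was a covariate. Intervals were wide for receptors too, -1.10 to 2.03 for Esr1, -4.54 to 2.02 for Pgr and -2.65 to 2.75 for Prlr, so that changes of several fold could not be told from none. Groups overlapped for all 8 genes (4.43% of all genes did not), and exact permutation p values were 0.171 to 0.971, the smallest possible being 0.0286 (two-sided).

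The sign or size of several estimates rested on NAM-treated M/D-driven tumor 1. Without it, the log2 fold change moved from -0.69 to 0.32 for Gata3, from -0.83 to 0.13 for Elf5, from -0.42 to 0.87 for Greb1 and from -1.26 to -0.11 for Pgr. Within experiment 1, Gata3 had the narrowest interval of the 8, -0.38 to 1.03. Esr1 (0.28) and Cited1 (1.37), the members that were not low in tumor 1, changed little.

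In AT3 tumors, Esr1 was the only member called, higher with NAM at 32.7 ± 22.4 against 5.29 ± 4.93 normalized counts (SD, n = 3 each), in a comparison that called 12.2% of 19281 genes higher and 10.9% lower. The log2 fold change was 2.70 ± 1.03 (SE; limma p = 0.0285, adjusted p = 0.177, two-sided exact permutation p = 0.2). NAM-treated tumors 2 and 3 were above all untreated tumors, whereas NAM-treated tumor 1 was at the level of untreated tumor 3. The call was lost without untreated tumor 1 (1.65), NAM-treated tumor 2 (2.52) or NAM-treated tumor 3 (2.19), and with epithelial markers as a covariate (1.09). Its highest level with NAM (54.5) was below the lowest of any M/D-driven tumor (129.8).

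Across 16429 genes with a known length, the log2 fold change in AT3 tumors followed transcript length (Spearman's rho = 0.59 across genes, against -0.04 in M/D-driven tumors). Genes are not independent replicates, so no p is given. The longest transcripts of the members measure 1090 (Cited1) to 9900 bases (Prlr), that of Esr1 6339. After removal of each tumor's trend with length and GC content, Esr1 was at 2.15, just inside the thresholds, Prlr moved from 0.52 to -0.01, and Greb1 moved from -0.19 to -1.03 and was called lower. Summed endothelial markers moved in the direction of Esr1, with sums of 3523 to 4187 without NAM and 4717 to 6944 with NAM (3 of 4 called higher), as did 2 of 6 fibroblast markers, whose sums overlapped (49177 to 173914 and 79987 to 229199). Of the myeloid markers, 3 of 7 were called higher, among them Itgam (1.18) and Csf1r (1.04), while their sums overlapped (22698 to 61927 without and 28619 to 42514 with NAM). The epithelial markers Krt19 (-1.24) and Krt7 (-0.92) and the adipocyte marker Fabp4 (-1.02) were lower, and the epithelial marker Cdh1 (0.90) was higher. The part of these cells in the Esr1 result was not tested.

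The other members did not pass in AT3 tumors. Gata3 came closest, at 356 ± 129 with and 201 ± 100.2 without NAM (log2 fold change 0.86 ± 0.43, adjusted p = 0.24), and passed without NAM-treated tumor 1 (1.2) or untreated tumor 2 (1.23). Prlr passed without NAM-treated tumor 1 only (0.98, against 0.52 with all tumors). Foxa1, whose groups did not overlap (22.6% of all genes tested), differed by 0.33 ± 0.20 on the log2 scale, below the fold threshold, with an exact permutation p of 0.1, the smallest that 3 against 3 tumors can give. Intervals of the log2 fold change were -0.54 to 1.97 for Pgr, -0.43 to 0.85 for Elf5 and -1.93 to 0.89 for Cited1.

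**Figure D3:**
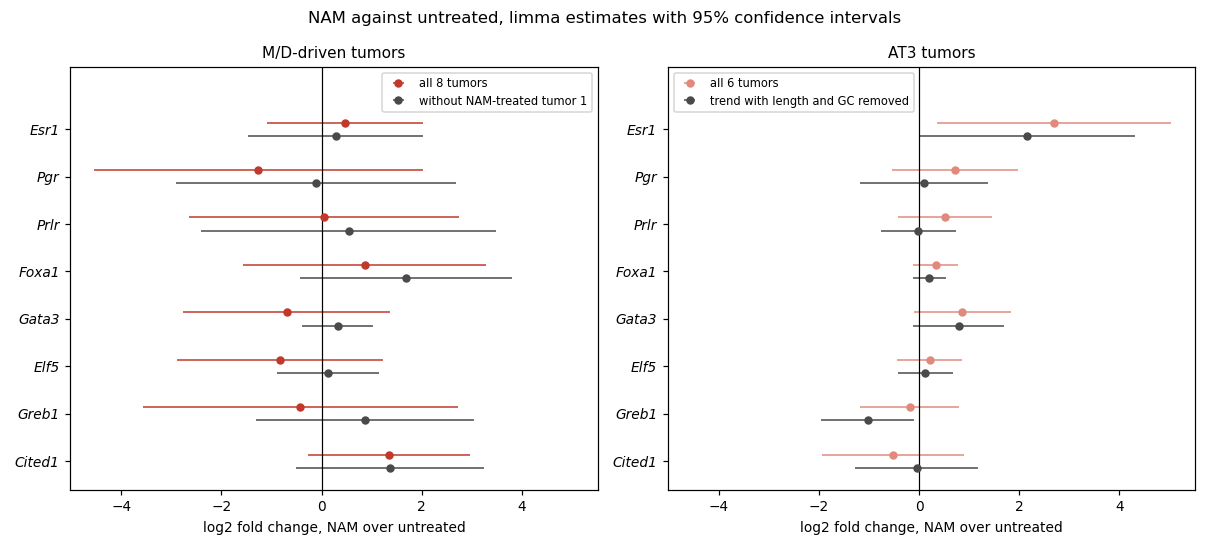
Log2 fold change of NAM-treated over untreated tumors (limma estimate and 95% confidence interval) for each gene. M/D-driven tumors are shown with and without NAM-treated tumor 1, and AT3 tumors before and after removal of the trend with transcript length and GC content. Before removal of that trend and with all tumors kept, Esr1 in AT3 tumors, at 2.70, is the only estimate whose interval lies clear of 0.

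The effect of NAM was not shown to differ between models for any member. The interaction term of a fit over all 14 tumors, AT3 minus M/D, was 2.23 ± 1.27 for Esr1 (limma adjusted p = 0.409) and -1.87 ± 1.07 for Cited1 (adjusted p = 0.413), and none of the 8 passed, against 14.9% of 22710 genes in either direction. Unadjusted p values were 0.102 to 0.894. Leaving out 1 tumor gave a call for Esr1 without untreated AT3 tumor 3 (2.90) or NAM-treated AT3 tumor 1 (2.91), and for Cited1 without the latter (-2.44) or NAM-treated M/D-driven tumor 2 (-2.34). Without NAM-treated M/D-driven tumor 1, none of the 8 passed, with Esr1 at 2.42 and Cited1 at -1.89. The remaining terms with all tumors were 1.97 for Pgr, 1.56 for Gata3, 1.03 for Elf5, 0.47 for Prlr, 0.23 for Greb1 and -0.53 for Foxa1.

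M/D-driven tumors differed widely from each other. Over the 7 tumors of experiment 1, across both treatments, the highest value was 27.6 times the lowest for Pgr, 25.8 times for Prlr, 20.4 for Cited1, 17.6 for Foxa1 and 15.4 for Greb1, but only 6.15 for Esr1, 3.5 for Elf5 and 2.32 for Gata3. AT3 tumors were more even for Foxa1 (1.56 times), Elf5 (1.76), Greb1 (1.89), Prlr (3.44), Pgr (3.57) and Cited1 (6.90), and less even for Gata3 (4.05). For Esr1 the lowest AT3 value was 0, so no ratio was taken. NAM-treated tumor 3 was the highest M/D-driven tumor for 6 of the 8 genes, and untreated tumor 2 the second for 5, namely Pgr, Prlr, Foxa1, Gata3 and Greb1. NAM-treated tumor 4 was highest for Elf5 and Cited1.

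**Figure D4:**
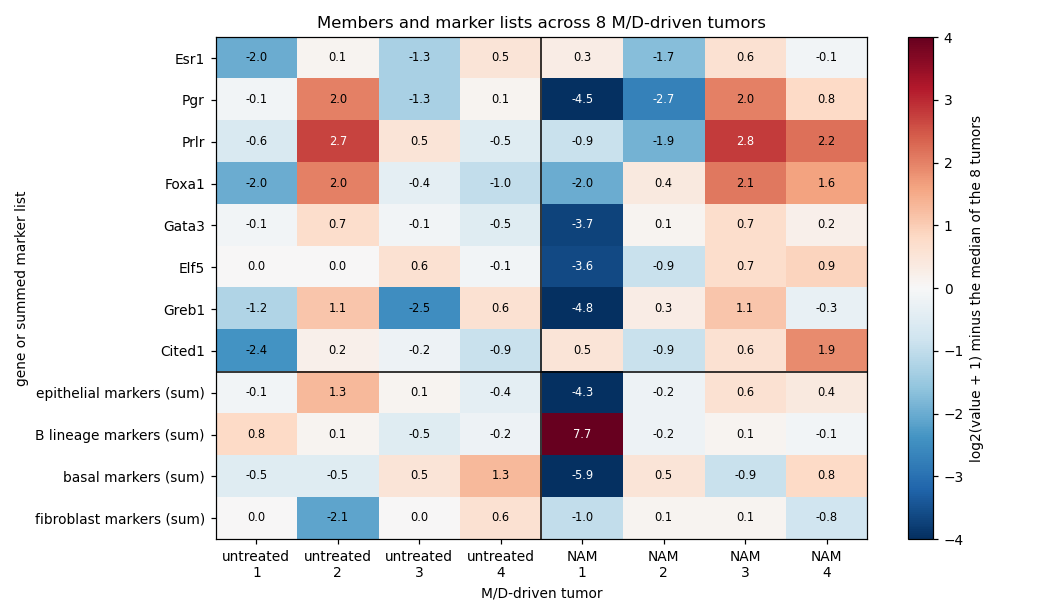
Heat map of the 8 genes and of 4 summed marker lists in the 8 M/D-driven tumors, as log2(value + 1) minus the median of the 8 tumors. Colors are capped at 4 in either direction and the numbers are the differences. Pgr, Prlr and Foxa1 are high in untreated tumor 2 and NAM-treated tumors 3 and 4, and NAM-treated tumor 1 combines low Pgr, Gata3, Elf5 and Greb1 with low epithelial and high B lineage markers.

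Over the 7 M/D-driven tumors of experiment 1, which span both treatments, 27 of the 28 pairs of members correlated positively on the log2 scale. The pairs share the same tumors and genes and are not independent. The share of positive pairs among all genes was not computed, so this count is not a result about the members. In exact permutation tests of Pearson's r (two-sided), no pair passed an adjusted p of 0.05 and 5 did before adjustment. The highest coefficients were those of Pgr with Prlr (Pearson's r = 0.87, exact p = 0.00972, adjusted p = 0.176; Spearman's rho = 0.89, exact p = 0.0123) and of Foxa1 with Gata3 (r = 0.84, exact p = 0.0188, adjusted p = 0.176; rho = 0.96, exact p = 0.00278, adjusted p = 0.0778). Leaving out the 2 tumors farthest from the median of the first gene of the pair (Pgr and Foxa1) gave 0.70 and 0.95. Greb1 and Elf5 were the exception, at r = -0.26 (exact p = 0.566). Inclusion of NAM-treated tumor 1 changed several coefficients, that of Gata3 with Elf5 from 0.30 to 0.91 and that of Esr1 with Gata3 from 0.33 to -0.20.

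Genes whose log2 levels most resembled a member over the 8 M/D-driven tumors were listed among 17605 genes with a symbol, as a description. For Esr1 these were Zbtb16 (Pearson's r = 0.96), Syt15 (0.94) and Negr1 (0.94). Pgr was most like Gm16485 (0.99), Kdelc2 (0.99) and Spon2 (0.98). Gm16485 (chr9:8971791-8975773) lies just beyond the 3′ end of Pgr on the same strand and ranged from 1.7 to 853 normalized counts. The leading genes were Arhgap6 for Prlr (0.99), Zkscan4 for Foxa1 (0.98), a locus joining Schip1, Iqcj and Gm21949 for Gata3 (0.99), Arntl2 for Elf5 (0.99), a locus joining Dbn1 and Mir6944 for Greb1 (0.97) and 1700018L02Rik for Cited1 (0.97). Zbtb16, Gm16485, Arhgap6, Zkscan4 and Cdcp1 (for Elf5, 0.99 over 8 tumors) were again among the first 3 when NAM-treated tumor 1 was left out.

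Genes that act with or below the members were taken from lists, on which calls are given as counts and medians and read against the background shares above. In untreated tumors, 8 of 15 other steroid receptors and coregulators were higher and 2 lower in M/D-driven than in AT3 tumors (median log2 fold change 0.98, against 0.03 over all genes). The orphan estrogen-related receptor gene Esrrb (4.83), the corepressor Nrip1 (2.83) and the coactivators Ncoa2 (2.68) and Ncoa1 (1.76) led. Of 14 estrogen and progesterone response genes tested, 7 were higher and 2 lower, among them the secreted factors Tnfsf11 (3.55), Wnt4 (3.33) and Areg (3.02), which relay progesterone and estrogen signals to neighboring cells, and the chemokine Cxcl12 (2.59). Downstream of Prlr, 4 of 7 signaling genes were higher, led by the STAT5 target Cish (3.98) and including Stat5a (1.38), Stat5b (1.38) and Jak2 (1.07), although Prlr itself was not called.

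Of 8 milk genes, which STAT5 and Elf5 are known to drive, Csn1s2a (8.13), Glycam1 (5.71) and Btn1a1 (5.34) were higher in untreated M/D-driven tumors. Other luminal and epithelial transcription factors were higher in 11 and lower in 2 of 15 cases, led by Klf5 (4.97), Runx1 (3.18), Ovol1 (3.07) and Grhl1 (2.63). Of 5 markers of hormone-sensing luminal cells, Prom1 (7.74) and Wnt5a (7.14) were higher and Aqp5 (-2.60) lower, and of 6 luminal progenitor markers 4 were higher, with Ltf (6.88) and Aldh1a3 (6.42) ahead, and Cd14 (-1.84) was lower. Markers of several other compartments were higher in M/D-driven tumors as well, in 9 of 9 basal and myoepithelial, 5 of 9 epithelial, 7 of 8 T cell, 5 of 7 myeloid, 4 of 6 fibroblast, 3 of 4 endothelial and 5 of 5 adipocyte cases, and their part in these results was not tested. B lineage and muscle markers did not follow. As deposited, B lineage sums were 1225 to 3083 in untreated M/D-driven and 2446 to 4747 in untreated AT3 tumors. Muscle sums were 131 to 22623 and 154 to 12946. With upper quartile scaling, which moved the median of all genes from 0.03 to -0.49, Esr1, Pgr, Gata3 and Elf5 were still called higher, and 8 of 15 luminal factors were.

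With NAM in M/D-driven tumors, calls among coregulators, response genes, luminal factors and luminal cell markers were all lower, with a limma adjusted p of 0.734 for each. In each of these lists the share called lower was above the 3.19% of all genes tested. These counts include NAM-treated tumor 1, in which epithelial markers were lowest. Calls among markers of other cell types were all higher, and the part of these cells in the results was not tested. The adipocyte gene Adipoq was higher, at 5123 to 7452 normalized counts without and 8357 to 13109 with NAM (log2 fold change 0.85, as 1 of 5 adipocyte markers), and so was the muscle gene Myh4 (7.30, as 1 of 4 muscle markers), at 0 to 6868 without and 427 to 99687 with NAM. Summed adipocyte markers ran from 20885 to 64614 without and from 33216 to 104409.8 with NAM. Of 14 coregulators tested, Nrip1 was lower (-0.62), and Pgrmc1, an abundant member of that list, was at -0.11. Igf1r (-1.15), Ctsd (-0.98) and Agr2 (-5.11) were lower among 14 response genes. The Agr2 value rests on untreated tumor 4, at 9378 normalized counts against at most 92.4 in any other M/D-driven tumor, and without NAM-treated tumor 1 Igf1r (-0.76) and Ctsd (-0.82) were the only response genes called. No prolactin signaling gene (of 7) and no milk gene (of 8) was called. Csn3 and Csn2, the casein genes with the highest levels, were at -0.02 ± 1.54 and -2.40 ± 2.57.

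Klf5 (-3.20) and Ehf (-2.08) were lower with NAM among 15 luminal and epithelial factors in M/D-driven tumors, and the median of that list was -1.70 against 0.01 over all genes. Without NAM-treated tumor 1 the median was -0.61, and Klf5 (-1.94), Runx1 (-1.31), Ehf (-1.08) and Ovol2 (-0.95) were called lower. Foxa1, Gata3 and Elf5 were all above 0 in that setting. Among luminal cell markers, Prom1 (-2.28), Ltf (-2.30) and Lbp (-1.59) were lower with all 8 tumors.

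With NAM in AT3 tumors, 7 of 14 other steroid receptors and coregulators were called higher and none lower (median 1.01, against -0.05 over all genes). Ncoa2 (2.47 ± 0.57), the mineralocorticoid receptor gene Nr3c2 (1.86 ± 0.50), Ncoa1 (1.49 ± 0.40) and Nrip1 (1.43 ± 0.46) led, with limma adjusted p values of 0.166 to 0.167. After removal of the trend with length and GC content, 5 of 14 were called, with Ncoa2 at 1.73, Nr3c2 at 1.30, Nrip1 at 0.83, Ncoa1 at 0.77 and the glucocorticoid receptor gene Nr3c1 at 0.59, and the median was 0.18. Of 15 luminal and epithelial factors, 7 were higher, led by Nfib (1.5), Runx1 (1.2), Grhl1 (1.00) and Ehf (0.85), and after that removal 4 were, namely Grhl1, Nfib, Ehf and Tfap2a. The treatment groups overlapped for Nrip1, Nfib, Runx1, Grhl1 and Ehf. Each of these was lower in NAM-treated tumor 1 than in untreated tumor 2, with Nrip1 at 689 and 845 normalized counts. Ncoa2, Nr3c2 and Ncoa1 did not overlap, and NAM-treated tumor 1 was again the lowest of its group. With the mean level of epithelial markers as a covariate, 2 coregulators and no luminal factor were called. With upper quartile scaling, which moved the median of all genes to -0.26, 6 coregulators were higher and 2 lower, and 3 luminal factors were higher.

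Stat5b (1.13) and Socs2 (0.64) were higher with NAM among 7 prolactin signaling genes in AT3 tumors, and neither passed after removal of the trend. Of 11 response genes tested, Wnt4 (-1.24) and Areg (-0.93) were lower and Ccnd1 (0.59) higher, and Wnt4 alone passed after removal (-1.65). Of 6 milk genes tested none was called, Csn3 being at -0.54 and Csn2 at 0.98. Among luminal cell markers, Kit (1.06) and Itga2 (0.84) were higher and Cxcl15 (-1.51) lower.

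In NAM-treated tumors, 0 of 14 coregulators and 0 of 15 luminal factors were called between models by limma, and without M/D-driven tumor 1 these counts were 0 of 15 and 3 of 15. Of 13 response genes 4 were higher and 2 lower in M/D-driven tumors, with Tnfsf11 (5.11), Wnt4 (4.69), Pdzk1 (2.52) and Cxcl12 (2.18) leading. Cish (4.09) and Jak2 (0.73) were higher among 7 prolactin signaling genes, and Glycam1 (5.33), Btn1a1 (3.48) and Lalba (2.66) among 8 milk genes. Tnfsf11, the paracrine target of the progesterone receptor, was at 3949 normalized counts in untreated tumor 2 and 12806 in NAM-treated tumor 3, the pair of M/D-driven tumors in which Pgr was highest. It also reached 4533 in NAM-treated tumor 1, where Pgr was lowest, and was at 289 to 686 in the 5 others.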

How the data were processed

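The authors aligned paired-end reads from poly(A) RNA of 14 tumors to mm10 with STAR 2.4.0, counted reads per gene over regions of the FAST DB annotation, and deposited a normalized signal per gene, each model having been divided by its own DESeq2 size factors. Whether counting used strand is not given in the sources used here. All values were whole reads after division by the tumor's step (tolerance 0.001), and totals were 40936868 to 84178009 reads per tumor, which allows a floor of 3 reads where a count is 0. Floors cover counting error only, and n counts tumors.

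Genes whose mean reached 10 in 1 or more of the groups compared were tested with limma 3.58.1 (trend) in R 4.3.3 on log2(normalized count + 1), with Benjamini-Hochberg adjustment over all genes tested. Comparisons between models used the reads rescaled with size factors computed over the tumors compared. Called genes had an unadjusted p of 0.05 or less and a fold change of 1.5 or more. Alternatives were edgeR 4.0.16, DESeq2 1.42.0, other scalings, pseudocounts and filters, a replicate block, an epithelial covariate, a spline for length and GC content (4 degrees of freedom), and leaving out each tumor. Tests were checked on simulated data. The deposited table holds 30657 genes without a symbol and 19524 genes at 0 in all tumors.

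The 8 members and the gene lists were chosen with earlier results of these data known. All members are named. Of each list, up to 4 called genes with the largest fold change are named, or, with fewer than 2 called, the 2 with the highest mean, and 3 genes most like each member. A gene that this rule names is not reported here. Further genes (Nr3c1, Tfap2a, Runx1 and Ovol2 under alternatives, Tnfsf11 by tumor, and single markers such as Vpreb1 and Krt19) were chosen after their values were seen. Sequences were read from RefSeq promoter windows of GRCm38.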

Additional observations from a re-analysis of the deposited data

Results flagged for a closer look

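Gata3 stood at 224.1 normalized counts in NAM-treated M/D-driven tumor 1, and its gap to the next tumor of that group, on the log2 scale, was above Dixon's 95% critical value for 4 tumors. The other 3 tumors of the group were at 3113, 4878 and 3539. Of 16 such tests (8 genes in each of the 2 groups of 4 tumors) this was the only one to pass, and chance alone passes about 1 in 20. The same tumor had a summed epithelial marker level of 8089 and a summed B lineage marker level of 360061, and their part in the Gata3 value was not tested.

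None of the 8 members passed a test of a difference between models in the response to NAM, in a fit that called 14.9% of all genes. From the pathway lists, 13 genes are named that passed at an unadjusted p of 0.05 or less. These are limma interaction terms of AT3 minus M/D on the log2 scale (adjusted p 0.187 to 0.328, so none passed after adjustment). The naming rule takes called genes, up to 4 per list with the largest terms. Their number is therefore no share of the genes tested and cannot be set against that of the members. All 13 terms, chosen in this way, were above 0. Among coregulators they were 2.49 for Ncoa2, 2.31 for Nr3c2, 2.05 for Nrip1 and 1.74 for Ncoa1. Among luminal and epithelial factors they were 4.34 for Klf5, 2.98 for Grhl1, 2.93 for Ehf and 2.56 for Nfib. Among response genes they were 5.64 for Agr2, 2.00 for Igf1r and 0.92 for Rara, the retinoic acid receptor alpha gene, and among luminal cell markers 3.42 for Wnt5a and 3.29 for Aldh1a3. Without NAM-treated M/D-driven tumor 1, the terms of Nr3c2 (1.98), Agr2 (4.93) and Rara (0.89) no longer passed, and those of the 10 others did, from 1.60 for Igf1r to 3.07 for Klf5. The log2 fold change in AT3 tumors also followed transcript length, and its part in these differences was not tested.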

How the results depend on the processing

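Of the 706 re-estimates of single members (8 genes, 5 comparisons, all alternatives), 640 kept their direction and their side of the thresholds. With NAM in M/D-driven tumors, the number of members called higher went from 0 to 1 with DESeq2 (Cited1) and with the epithelial covariate (Foxa1), and ranged from 0 to 1 with 1 tumor left out. In AT3 tumors the count went from 1 to 0 with an adjusted p of 0.05 (Esr1 unadjusted p = 0.0285), with a minimum group mean of 50, under which Esr1 was not tested, and with the epithelial covariate, and ranged from 0 to 3 with 1 tumor left out. Members lower in AT3 tumors went from 0 to 1 (Greb1) after removal of the trend with length and GC content. Between untreated models, members lower went from 1 to 2 with upper quartile scaling (adding Cited1), to 0 with edgeR and to 0 with DESeq2, and ranged from 0 to 2 with 1 tumor left out, while members higher stayed at 4. Between NAM-treated models, members higher went from 1 to 3 with edgeR, to 4 with DESeq2 and to 3 with the deposited values taken as they are, and ranged from 1 to 3 with 1 tumor left out, members lower ranging from 0 to 1. For the interaction both counts ranged from 0 to 1. Except where a stated construction shows it (fewer tumors or genes tested), the cause was not tested.

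Log2 fold changes that changed sign were small or rested on few tumors. With NAM in M/D-driven tumors they were -0.0703 for Prlr after trend removal, and, with the epithelial covariate, 0.27 for Gata3, 0.026 for Elf5 and 0.78 for Greb1. With 1 tumor left out, Prlr ranged from -0.70 to 0.86, Gata3 from -1.16 to 0.32, Elf5 from -1.36 to 0.13 and Greb1 from -1.10 to 0.87. In AT3 tumors they were -0.015 for Prlr after trend removal, -0.0008 for Elf5 with upper quartile scaling and 0.097 for Cited1 with the covariate, and Cited1 ranged from -1.10 to 0.29 with 1 tumor left out. Between untreated models, Prlr was at -0.24 with upper quartile scaling and ranged from -0.48 to 0.63. Between NAM-treated models, Prlr was at 0.73 with edgeR, 0.71 with DESeq2 and 0.18 with the deposited values, and ranged from -0.95 to 0.60. For the interaction, Greb1 was at -0.071 with a pseudocount of 5 and -0.012 with upper quartile scaling, and with 1 tumor left out Prlr ranged from -0.33 to 1.22, Foxa1 from -1.36 to 0.032 and Greb1 from -1.06 to 0.91.

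The replicate numbers were not taken as pairs, since tumors of the same number did not deviate together in every pair (correlations of -0.44 to 0.26), and not every tumor correlated best with its own number. With the replicate number as a block, 2 members were called higher with NAM in AT3 tumors (Esr1 and Gata3, the latter at 0.86), and 0 in M/D-driven tumors, where genes called went from 658 higher and 692 lower to 479 and 522. In AT3 tumors all calls went from 2358 higher and 2100 lower to 2702 and 2380 with the block. Genes with a limma adjusted p of at most 0.05 went from 1 to 1296 there, so adjusted p values in AT3 tumors depend on the block. Those given above are without it. With upper quartile scaling the calls in AT3 tumors were 1461 higher and 3500 lower, and the median of all genes moved to -0.26. Upper quartile scaling gave 917 higher and 562 lower in M/D-driven tumors, and 4707 higher and 8409 lower between untreated models, against 6467 and 5770. Depth limits Esr1 and Pgr in AT3 tumors, at 0 to 66 and 6 to 33 reads. It also limits Greb1 in both models, at 0 to 63 reads in M/D-driven and 18 to 50 in AT3 tumors.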
